A study of Mus musculus with 6 samples.

Results

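The dual-specificity MAP kinase phosphatases are enzymes that remove phosphate from both the tyrosine and the threonine of the activation loop of MAP kinases and so switch these kinases off. Many of their genes are themselves switched on by MAP kinase signalling, so that they act as negative feedback and their transcripts are often read as a trace of recent pathway activity. They fall into a nuclear inducible class, a cytoplasmic class directed at ERK, and a class directed at the stress kinases JNK and p38. In blood cells, MAP kinases relay signals from cytokine and growth factor receptors and from inflammatory stimuli. The 9 genes described here are Dusp1, Dusp2, Dusp4 and Dusp5 (nuclear inducible), Dusp6 and Dusp7 (cytoplasmic, ERK-specific), and Dusp8, Dusp10 and Dusp16 (JNK and p38 directed). They were chosen by symbol, as the probe sets that the array's annotation names for 1 gene, and each of the 9 had 1 such probe set. They are 9 of 30142 genes named on the array, and all 9 were among the 18736 genes bright enough to be tested.

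Expression was measured in Lineage- c-Kit+ Sca1+ (LSK) cells, the sorted bone marrow fraction that holds the stem cells and earliest progenitors of blood, on 6 Affymetrix arrays. The knockout group was miR-21flox/flox:Mx1-Cre+ mice (3 arrays), in which miR-21 was to be deleted, and the control group was miR-21flox/flox:Mx1-Cre- littermates (3 arrays). Both groups carried the floxed miR-21 alleles and both were given pIpC, a synthetic double-stranded RNA, at 250 µg per injection for 7 injections from an age of 4 to 6 weeks, with cells taken 4 weeks after pIpC. The Mx1 promoter that drives Cre answers to interferon and is not restricted to blood cells, and Cre was present in the knockout group alone, so an effect of Cre cannot be told apart from one of miR-21 loss. Titles call the samples biological replicates. How many mice were pooled for each, if any, is not stated in the labels, and p-values therefore refer to the spread among 3 arrays per group.

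The microRNA that was to be deleted is shown for reference, from RefSeq (GRCm38.p6, chr11:86584120-86584141, minus strand), with the seed, bases 2 to 8, in capitals.
mmu-miR-21a-5p: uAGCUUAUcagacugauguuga
The probe set over this locus is annotated to both Mir21a and its host gene Vmp1. It read 5.65, 5.64 and 5.76 on the knockout arrays and 5.65, 5.60 and 5.63 on the control arrays on the log2 scale. The groups overlapped (difference 0.05, exact two-sided permutation p = 0.4, where 3 arrays against 3 cannot go below 0.1). Because it is shared with Vmp1, this probe set says nothing on the deletion.

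Values are log2 expression after RMA, and a change is the mean of the 3 knockout arrays minus the mean of the 3 control arrays, so that a fall of 1 is a drop by a factor of 2. Array medians lay between 1.90 and 1.95. Correlations across all probe sets were 0.995 to 0.997 within groups and 0.987 to 0.991 between them. The array number, 3 per group, limits the precision. A gene was called when its limma adjusted p over all 18736 genes was under 0.05. By this rule 5909 genes were called (31.5%), with 19.4% higher and 12.2% lower in the knockout. The balance of directions depended on what was tested: with all 32985 probe sets above the dim level, named or not, 3781 were higher and 4430 lower. Stem cell defining genes were present, with Kit at 8.15 in the knockout and 8.61 in control and Cd34 at 8.89 and 9.06. Ly6a, the Sca-1 gene, was not analysed here.

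Of the 9 phosphatase transcripts, 7 fell in the knockout, 1 rose and 1 was not called. The background against which these counts are read is 12.2% of genes lower and 19.4% higher. Dusp16, Dusp6, Dusp4 and Dusp5 fell most, by 2.25-fold to 2.70-fold, and Dusp8, Dusp10 and Dusp2 fell by 1.35-fold to 1.42-fold. Dusp7 rose by 1.23-fold, and Dusp1 was at 0.23 with no call. The median change over the 9 genes was -0.50, beside a median of 0.07 over all genes tested. Because the 9 genes were chosen with earlier results of these data known, this contrast is a description and not a test. The 2 groups of arrays did not overlap for 8 of the 9, where 48.2% of all genes had groups that did not overlap, 17.2% of all genes being lower in this way and 31% higher. A call together with a fold of at least 1.5 was reached by 4 of the 9, and by 4.12% of all genes. In sorted cells measured in bulk, fewer cells that express a gene and less RNA per cell cannot be told apart.

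**Figure D1:**
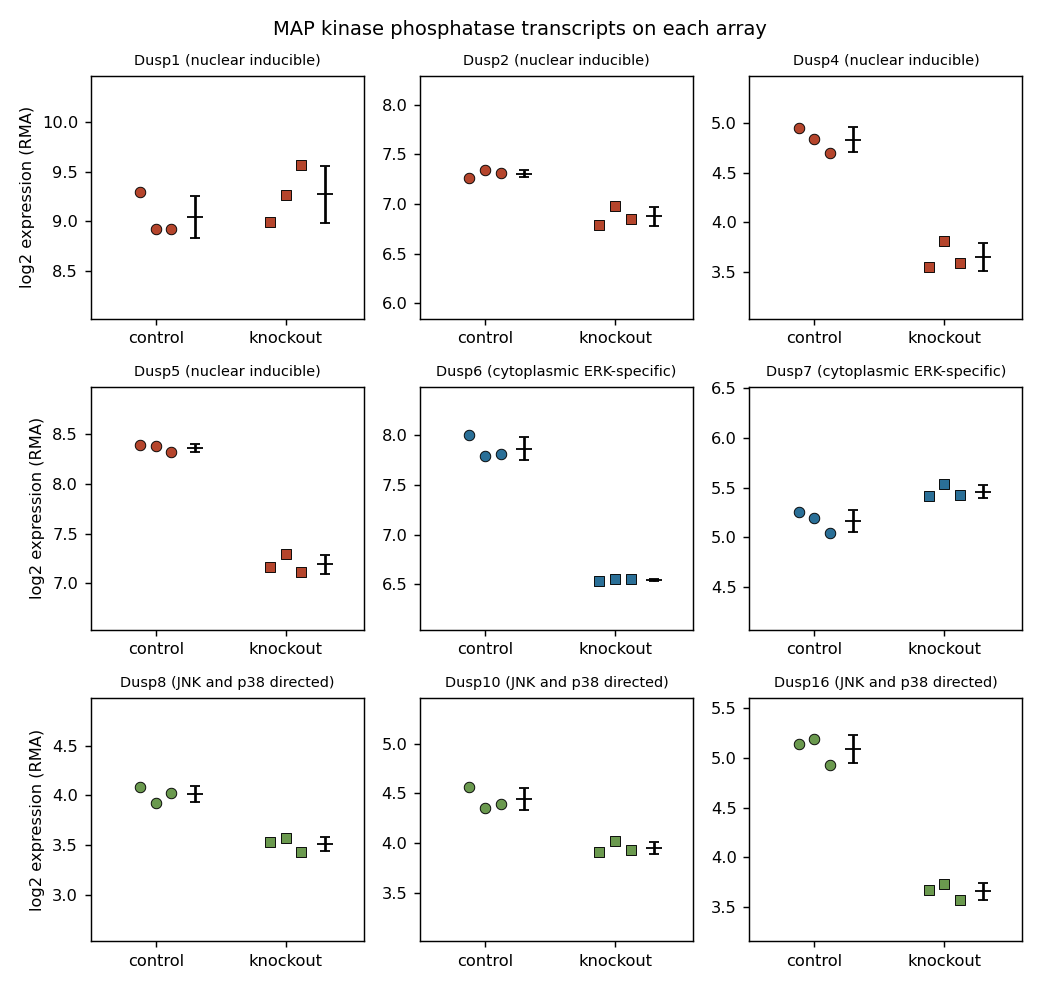
Log2 expression (RMA) of each of the 9 phosphatases on the 3 control arrays (circles) and 3 knockout arrays (squares), with group mean and SD beside them, 1 panel per gene and an axis of the same height in each. The knockout arrays lie below the control arrays for 7 genes, above them for Dusp7, and among them for Dusp1.

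The nuclear inducible members are taken first. They are rapidly transcribed after growth factor or stress signals, and the promoters of 2 of them are shown because one, Dusp5, fell strongly and the other, Dusp1, did not fall. The sequences are the 250 bases before the start site from RefSeq (GRCm38.p6), read 5′ to 3′ on the gene's own strand, at chr19:53528895-53529144, plus strand, and chr17:26508473-26508722, minus strand. Capitals mark every match, on either strand, to TGACGTCA (the cyclic AMP response element), TGANTCA (AP-1), GGAAG (ETS core), a loose NF-kB pattern (GGG and CC with any 5 bases between), CACGTG (E-box) or the CArG box of serum response factor. Matches that overlap run together in capitals.
Dusp5: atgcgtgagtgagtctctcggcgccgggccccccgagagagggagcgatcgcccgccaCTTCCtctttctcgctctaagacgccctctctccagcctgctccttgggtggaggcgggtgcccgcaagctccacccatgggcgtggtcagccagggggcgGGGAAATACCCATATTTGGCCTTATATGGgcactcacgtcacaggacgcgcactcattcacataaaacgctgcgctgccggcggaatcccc
Dusp1: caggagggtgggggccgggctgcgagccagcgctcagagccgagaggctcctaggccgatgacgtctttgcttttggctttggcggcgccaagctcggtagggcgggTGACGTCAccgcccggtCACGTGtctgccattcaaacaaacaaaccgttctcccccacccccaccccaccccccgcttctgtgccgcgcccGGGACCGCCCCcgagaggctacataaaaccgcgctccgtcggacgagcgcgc
The Dusp5 window held 2 CArG boxes, at -82 to -73 and -72 to -63 from the start site, the first of which overlapped by 1 base a match to the NF-kB pattern at -91 to -82. At least 1 CArG box was present in 1.63% of the 32851 promoters searched in windows of 300 bases (250 before and 50 after the start), and among the 8 phosphatases with a promoter in the table only Dusp5 had one. The Dusp1 window held TGACGTCA at -143 to -136 and CACGTG at -126 to -121, found in 1.79% and 7.15% of promoters. The NF-kB pattern is loose, present in 50.8% of all promoters and in 6 of the 8 here, and GGAAG was in 71.4% of all and in 4 of the 8. TGANTCA, in 7.81% of all promoters, was in 0 of the 8. These are matches of letters, not sites shown to be bound.

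Dusp5, a nuclear phosphatase that acts on ERK alone, read 7.16, 7.29 and 7.12 on the knockout arrays and 8.39, 8.38 and 8.32 on the control arrays. Every knockout array lay more than 1 log2 unit below every control array, with a gap of 1.02 between the nearest arrays. The transcript fell by 1.17 ± 0.07 (SE, n = 3 against 3) on the log2 scale, or 2.25-fold (limma adjusted p = 4.84e-06).

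Dusp4, a nuclear phosphatase for ERK and the stress kinases that is induced by ERK signalling, read 3.55, 3.81 and 3.59 in the knockout and 4.95, 4.84 and 4.70 in control. The groups were again apart, by 0.89 between their nearest arrays. Dusp4 fell by 1.18 ± 0.09 (SE) on the log2 scale, or 2.26-fold (limma adjusted p = 2.50e-05).

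Dusp2, a nuclear phosphatase first known from activated lymphocytes, read 6.79, 6.98 and 6.85 in the knockout and 7.27, 7.34 and 7.31 in control. All knockout arrays were lower than all control arrays, but the step was smaller than for Dusp4 and Dusp5. It fell by 0.43 ± 0.07 (SE) on the log2 scale, or 1.35-fold (limma adjusted p = 0.00157).

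Dusp1, the general stress-induced phosphatase that acts on p38 and JNK as well as ERK, stood apart from these. It read 8.99, 9.27 and 9.56 in the knockout and 9.29, 8.93 and 8.92 in control, so that the groups overlapped. The change was 0.23 ± 0.15 (SE) on the log2 scale, with a 95% interval of -0.10 to 0.55 and a limma adjusted p of 0.257. Its spread within groups was the widest of the 9 genes, with an SD of 0.29 in the knockout and 0.21 in control, against SDs of 0.01 to 0.14 for the other 8. A rise of up to 0.55 or a fall of up to 0.10 lies within that interval, while a fall of the size of that of Dusp2, 0.43, does not. Leaving out 1 array at a time moved the change between 0.08 and 0.37, with an adjusted p between 0.0717 and 0.667. The value was 0.08 without knockout replicate 3 and 0.37 without knockout replicate 1.

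The cytoplasmic ERK-specific members reside in the cytoplasm and dephosphorylate ERK there. Dusp6 is induced by ERK signalling and is its best known feedback phosphatase, whereas Dusp7 is its close relative. The promoters of both are shown because these 2 genes of the same class moved in opposite directions. They were taken and marked as above, at chr10:99262981-99263230, plus strand, and chr9:106368382-106368631, plus strand.
Dusp6: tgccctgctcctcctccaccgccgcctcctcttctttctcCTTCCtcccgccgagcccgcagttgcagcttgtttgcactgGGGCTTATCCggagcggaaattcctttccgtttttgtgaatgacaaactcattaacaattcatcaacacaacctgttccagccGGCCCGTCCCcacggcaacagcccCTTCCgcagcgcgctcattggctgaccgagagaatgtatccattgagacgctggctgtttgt
Dusp7: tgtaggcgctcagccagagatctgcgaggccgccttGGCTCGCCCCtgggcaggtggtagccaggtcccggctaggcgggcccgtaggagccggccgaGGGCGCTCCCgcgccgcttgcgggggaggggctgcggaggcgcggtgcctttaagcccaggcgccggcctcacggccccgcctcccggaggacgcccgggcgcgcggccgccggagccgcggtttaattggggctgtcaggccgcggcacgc
Both windows held 2 matches to the loose NF-kB pattern, and Dusp6 held 2 matches to GGAAG, at -210 to -206 and -62 to -58, while the Dusp7 window held none. Of the 250 bases, 56.4% were G or C before Dusp6 and 77.2% before Dusp7, beside a median of 52.4% over all promoters. Before the other genes that fell it was 71.6% (Dusp8), 70.4% (Dusp2), 68.4% (Dusp16), 64% (Dusp5) and 59.6% (Dusp10). GGAAG was present for Dusp2, Dusp5 and Dusp8 but absent for Dusp10 and Dusp16, which fell as well. Whether either feature bears on the direction of change was not tested.

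Dusp6 read 6.53, 6.55 and 6.55 in the knockout and 8.0, 7.79 and 7.81 in control. The 3 knockout arrays were nearly identical (SD 0.01), and the gap to the nearest control array, 1.24, was the widest of the 9 genes. Dusp6 fell by 1.32 ± 0.07 (SE) on the log2 scale, or 2.5-fold (limma adjusted p = 3.84e-06). It had the smallest adjusted p of the 9.

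Dusp7 read 5.42, 5.54 and 5.42 in the knockout and 5.26, 5.19 and 5.04 in control. It was the only one of the 9 whose knockout arrays all lay above the control arrays, with a gap of 0.16. It rose by 0.30 ± 0.07 (SE) on the log2 scale, or 1.23-fold (limma adjusted p = 0.0138). The rise is small beside the background, since 21.0% of all genes tested changed by at least as much in either direction. Dusp9, the remaining cytoplasmic ERK phosphatase and not among the 9, was at 0.13 ± 0.10 (SE, limma adjusted p = 0.369), with a 95% interval of -0.10 to 0.35.

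The phosphatases directed at JNK and p38 all fell. Dusp16, which binds JNK and shuttles between nucleus and cytoplasm, read 3.67, 3.73 and 3.57 in the knockout and 5.14, 5.19 and 4.93 in control. The nearest arrays of the groups were 1.20 apart. Its change of -1.43 ± 0.08 (SE, 2.70-fold lower, limma adjusted p = 5.45e-06) was the lowest of the 9, and 0.406% of all genes tested changed by at least as much in either direction. Its promoter window held none of the motifs searched.

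Dusp8 read 3.53, 3.57 and 3.43 in the knockout and 4.08, 3.92 and 4.03 in control. It acts on JNK and p38, and all its knockout arrays were lower than its control arrays. It fell by 0.50 ± 0.07 (SE) on the log2 scale (1.42-fold, limma adjusted p = 0.000783). Its promoter, at chr7:142095285-142095534, minus strand, is shown because it held TGACGTCA at 2 places, -107 to -100 and -63 to -56. That sequence was otherwise found only at Dusp1 among the 8 promoters.
Dusp8: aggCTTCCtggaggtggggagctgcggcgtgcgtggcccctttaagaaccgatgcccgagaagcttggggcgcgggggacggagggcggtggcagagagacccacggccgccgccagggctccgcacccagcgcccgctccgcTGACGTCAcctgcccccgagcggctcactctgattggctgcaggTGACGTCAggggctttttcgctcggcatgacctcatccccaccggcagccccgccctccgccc
Dusp10, the phosphatase of p38 and JNK that limits innate immune responses, read 3.91, 4.02 and 3.93 in the knockout and 4.57, 4.36 and 4.40 in control. The groups did not overlap. Dusp10 fell by 0.48 ± 0.07 (SE) on the log2 scale (1.40-fold, limma adjusted p = 0.00127). Changes of the size of those of Dusp8 and Dusp10 or larger were seen for 6.13% and 6.73% of all genes tested.

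**Figure D2:**
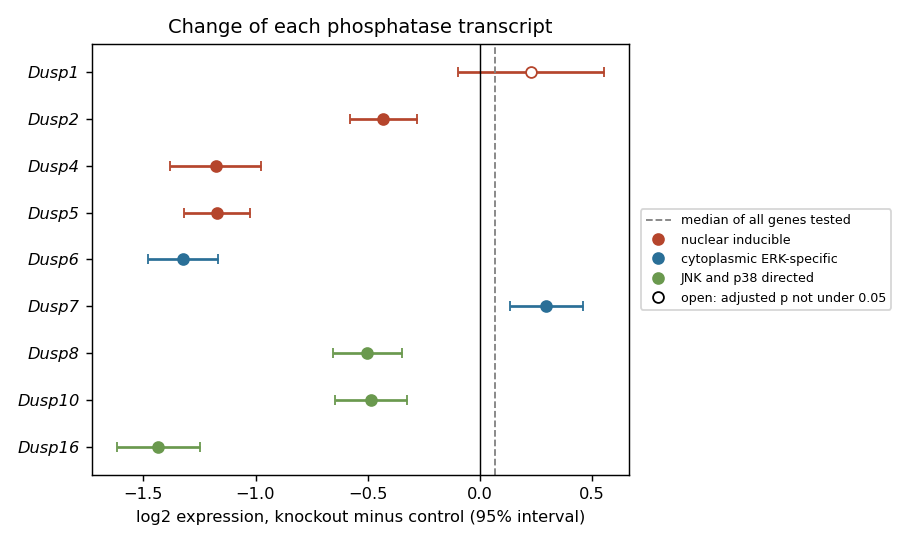
Change in log2 expression, knockout minus control, of each phosphatase with its 95% interval from limma, coloured by class. Filled points were called and the open point, Dusp1, was not. The dashed line is the median of all genes tested, 0.07. The 7 intervals below 0 belong to members of every class.

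Set side by side, the nuclear inducible and the cytoplasmic ERK-specific class were not separated by their changes. The nuclear class ran from 0.23 (Dusp1, not called) to -1.18 (Dusp4), with 3 of 4 genes lower, and the cytoplasmic class from 0.30 (Dusp7) to -1.32 (Dusp6), with 1 of 2 lower and 1 of 2 higher. The median change was -0.80 over the 4 nuclear genes and -0.51 over the 2 cytoplasmic genes, where the latter is the midpoint between a fall and a rise and describes neither gene. With each gene set against its own control mean, the nuclear class averaged -0.76, -0.55 and -0.61 on the knockout arrays and 0.09, -0.01 and -0.07 on the control arrays. The cytoplasmic class averaged -0.54, -0.47 and -0.53 on the knockout arrays and 0.11, -0.02 and -0.09 on the control arrays. Both class averages were thus lower on every knockout array than on any control array. In the cytoplasmic class this came from Dusp6 alone, as Dusp7 was higher on every knockout array than on any control array. The nuclear average lay below the cytoplasmic one by 0.08 to 0.22 on the 3 knockout arrays, and this difference between classes was not tested. The JNK and p38 directed class averaged -0.87 to -0.74 on the knockout arrays. Within every class, a fall of more than 1 log2 unit stood beside a gene that fell by 0.50 or less, was not called or rose. Sorted by substrate instead, the members that act on ERK alone, Dusp5, Dusp6 and Dusp7, were at -1.17, -1.32 and 0.30.

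**Figure D3:**
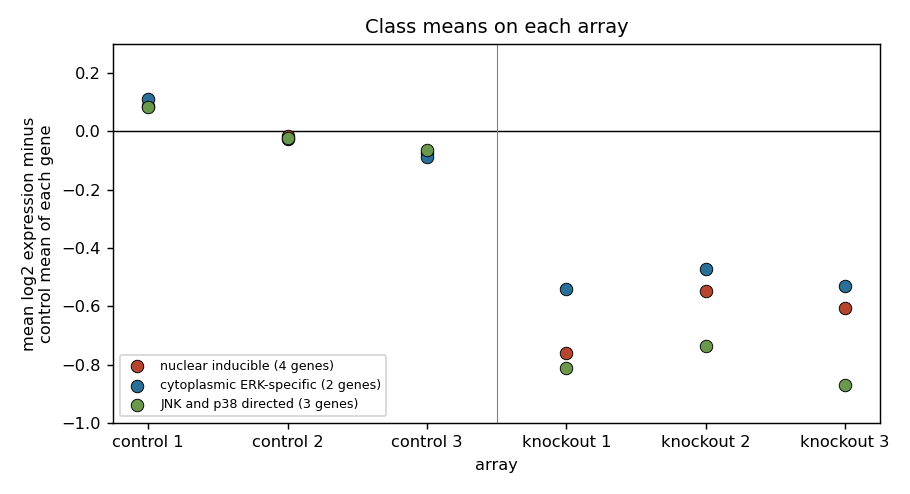
Mean log2 expression of each phosphatase class on each array, after subtracting each gene's own control mean. Points are coloured by class (4 nuclear inducible, 2 cytoplasmic ERK-specific and 3 JNK and p38 directed genes). On the knockout arrays the nuclear class lies between -0.76 and -0.55 and the cytoplasmic class between -0.54 and -0.47. The cytoplasmic mean averages a fall of Dusp6 and a rise of Dusp7.

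Arrays of a group differed in the same direction for most members. Knockout replicate 2 had the highest knockout value for 8 of the 9 genes, all but Dusp1, and control replicate 1 the highest control value for 7 of the 9, all but Dusp2 and Dusp16. These deviations were small, at most 0.16 for the 8 genes other than Dusp1 in either group. Each of the 8 calls was kept with every single array left out.

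By a rule of likeness, the genes with the highest Pearson correlation to each called member over the 6 arrays were taken, 3 for each. All 24 correlations were at least 0.992. They are a description over 6 arrays that share the same 2 groups, and many more genes correlated nearly as well (858 genes above 0.95 for Dusp6, and 304 for Dusp7). Nearest to Dusp6 were the chemokine gene Cxcl2 (change -2.09), the urokinase receptor gene Plaur (-1.64) and Cd53 (-0.64). Nearest to Dusp16 were the kinase gene Ptk2b (-0.42), the NF-kB subunit gene Relb (-0.64) and the IkB family gene Nfkbie (-1.30). Relb was also among the nearest to Dusp5, with the kinase gene Camk1d (-0.59) and the inflammasome gene Nlrp3 (-2.02). For Dusp4 they were Fzd4 (-1.34), Tox (-0.81) and Arih2 (-0.56), and for Dusp2 they were Cpeb4 (-0.41), Phlpp1 (-0.60) and Il17re (-0.31). Hpn (-0.19) was near both Dusp8 and Dusp10, beside Tm9sf3 and Vopp1 for the first and Jakmip1 and Gas6 for the second. Dusp7, which rose, was nearest to the transcription factor gene Lyl1 (0.41), Tmem115 (0.37) and Rassf4 (0.25).

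Other phosphatases gave a comparison by family. In both lists that follow, the share of genes called was under that over all genes tested, 31.5%. Of 20 further genes of the dual-specificity and related families that were tested (atypical members, slingshot and Cdc14 phosphatases and Dusp9), 4 fell, 1 rose and 15 were not called, and the median change was 0.04 (0.07 without knockout replicate 1, 0.02 without knockout replicate 2). Those that fell were Ssh2 (-0.30), Ssh3 (-0.28), Dusp11 (-0.27) and Cdc14a (-0.17, named after its value was seen), and Ptpmt1 rose (0.23). The calls on Ssh3 and Ptpmt1 were lost with several arrays left out in turn: Ssh3 without any 1 of knockout replicates 1, 2 and 3 and control replicates 1 and 2 (-0.30 to -0.22), and Ptpmt1 without any 1 of knockout replicates 1 and 3 and control replicates 1 and 3 (0.18 to 0.24). The count of 5 called fell to 2 without knockout replicate 1, knockout replicate 3 or control replicate 1, and to 3 without control replicate 2. None of these genes changed by more than 0.30 in size, whereas 7 of the 9 MAP kinase phosphatases fell by more than 0.40. The levels differed, however. Some of these genes, such as Dusp15 (2.34 over all arrays), Cdc14b (2.43) and Dusp26 (2.97), were dimmer than Dusp8 (3.76), the dimmest of the 9. Others, such as Dusp11 (6.11) and Ptpmt1 (5.97), were brighter than it. The 9 were also chosen with earlier results known, so the contrast is a description. Among 7 tested phosphatases of other families that act on MAP kinases, the serine/threonine phosphatase Ppm1a fell (-0.50 ± 0.07 SE, limma adjusted p = 0.000638) and the tyrosine phosphatase of blood cells Ptpn7 rose (0.26, adjusted p = 0.0122). The other 5 were not called, among them Ppm1b (-0.20) and Ppp2r1a (-0.13).

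The kinases and adaptors of the 3 MAP kinase pathways had median changes closer to 0 than the phosphatases. Lists and phosphatases alike were chosen with earlier results of these data known. Over all genes tested, 12.2% were called lower and 19.4% higher. In the ERK arm, 7 of 16 tested genes fell, 0 rose and 9 were not called. The median was -0.12, or -0.19 without control replicate 3 and -0.09 without control replicate 2. The count of 7 called was 5 without any 1 of knockout replicates 1 and 3 and control replicates 1 and 2. The guanine exchange factor Sos2 (-0.35), the kinase Braf (-0.42) and the ERK-regulated transcription factors Elk1 (-0.40) and Elk4 (-0.33) fell, and the highest change was that of the ERK-activated kinase Rps6ka3 (0.15, limma adjusted p = 0.0862, or 0.16 and 0.0452 with array weights). In the JNK arm, 3 of 7 fell and 0 rose (median -0.09, or -0.14 without control replicate 3 and -0.20 with the stricter filter on dim genes): the scaffold Spag9 (-0.71), the JNK gene Mapk8 (-0.63) and the JNK gene Mapk9 (-0.32). The call on Mapk9 did not hold with any 1 of knockout replicates 1 and 2 and control replicates 1 and 2 left out (-0.32 to -0.25). The scaffolds Mapk8ip3 (-0.09) and Mapk8ip1 (0.09) were not called.

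In the p38 arm, 1 of 9 genes fell, 2 rose and 6 were not called (median -0.06, or 0.02 without knockout replicate 2, -0.03 without control replicate 3 and -0.01 with array weights). That share of calls is close to the 31.5% over all genes tested. The p38-activating kinase gene Map2k3 fell by 1.04 ± 0.07 (SE) on the log2 scale (limma adjusted p = 1.80e-05). It read 6.00, 5.84 and 5.99 in the knockout and 7.09, 6.89 and 6.96 in control. Of the kinases downstream of p38, Mapkapk3 rose by 0.45 and Mapkapk2 by 0.43. Rps6ka5 of the same list, named after its value was seen, was at -0.09 and not called (limma adjusted p = 0.265). The p38 isoform gene Mapk12 was at -0.14 (adjusted p = 0.101). Among 19 kinases and adaptors above JNK and p38, 8 fell, 4 rose and 7 were not called (median -0.06, or -0.09 without control replicate 3, -0.03 without knockout replicate 3 and -0.12 with the stricter filter). Gadd45b, which binds an upstream kinase of both pathways, fell by 0.98, Map3k8, the kinase that links NF-kB signals to ERK, fell by 0.78 and Map3k2 fell by 0.48. The 4 that rose were Map3k6 (0.52) and, named after their values were seen, Tab1 (0.43), Gadd45a (0.35) and Gadd45g (0.33).

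Transcripts that ERK signalling is known to raise were looked at beside the phosphatases it raises. The background for the counts is again 12.2% of all genes tested lower and 19.4% higher. Of 13 tested, 6 fell, 1 rose and 6 were not called (median -0.27, or -0.22 without knockout replicate 3). The receptor signalling antagonist Spry2 fell by 0.89 ± 0.09 (SE, limma adjusted p = 0.000170), Phlda1 by 0.89 and the early response factor Egr1 by 0.42 on the log2 scale. Myc rose, by 0.81 ± 0.07 (SE, adjusted p = 3.45e-05). Its values of 7.95, 8.06 and 8.05 in the knockout all lay above those of 7.26, 7.24 and 7.12 in control. Of 24 immediate early genes, which share the rapid induction of the nuclear phosphatases, 12 fell, 0 rose and 12 were not called (median -0.33). The nuclear receptor genes Nr4a2 (-1.49), Nr4a3 (-1.18) and Nr4a1 (-1.10) and the stress factor Atf3 (-1.27) had the smallest p-values, and Jund had the highest change (0.17, adjusted p = 0.0923).

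**Figure D4:**
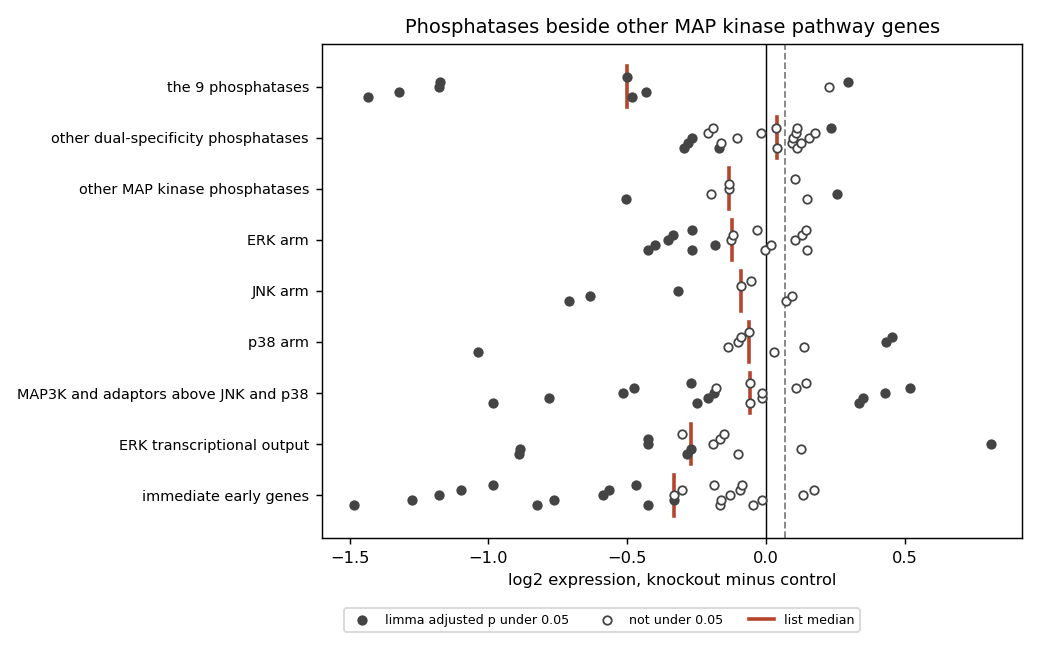
Change in log2 expression, knockout minus control, of every tested gene in the 9 phosphatases and in 8 lists of related genes, 1 point per gene. Filled points were called by limma, red bars are list medians and the dashed line is the median of all genes. The phosphatases have the lowest median of these lists, -0.50, followed by the immediate early genes at -0.33. Genes can stand in 2 lists. The phosphatases and the lists were chosen with earlier results of these data known, so their order is a description.

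Markers of several other cell types moved with the groups as well. Beside them, 19.4% of all genes tested were called higher and 12.2% lower. The share of B cell markers called was close to the 31.5% called over all genes. All 11 neutrophil markers tested of 12 listed rose (0.38 to 2.38). Their summed log2 level was 51.8 to 53.5 on the knockout arrays and 39.3 to 41.5 on the control arrays, and Ly6g, which marks mature neutrophils, was low in both (2.61 and 2.23, where the level under which genes were left out was 1.92). Of 8 monocyte and macrophage markers 4 rose and 0 fell (summed level of all 9 named, 35.0 to 35.5 against 30.6 to 31.4), and of 6 mast cell and basophil markers 5 rose and 1 fell (summed level of all 7, 26.9 to 28.3 against 22.2 to 22.6). Of the megakaryocyte and platelet markers, 6 in number, 4 rose and 0 fell (27.5 to 27.9 against 25.7 to 25.8). Of 6 tested B cell markers 1 rose and 1 fell (summed level of all 7 named, 24.4 to 24.8 against 24.3 to 24.8), of 5 tested T and NK cell markers 2 rose and 0 fell (summed level of all 8 named, 22.5 to 23.2 against 21.1 to 21.4), and of 3 erythroblast markers 0 passed. The T and NK cell markers that rose were Klrb1c and Nkg7, the latter named after its value was seen. Nkg7 was bright in both groups (8.57 in the knockout and 8.04 in control). Cd3e, Cd4 and Cd8a were dim (2.23, 2.35 and 1.94 over all arrays) and not called. The defining genes Ms4a1, Cd3d and Cd3g were under the dim level. Klrb1c, Ccr2 and Fcer1a, named after their values were seen, are counted above as risen but passed that level only through the knockout group. Their means were 2.39, 2.99 and 3.07 in the knockout and 1.85, 1.83 and 1.70 in control. The filter thus favours markers that rise from a low level. Of 8 tested markers of the LSK fraction 7 fell and 1, Slamf1, rose (summed level 48.9 to 49.5 against 51.9 to 52.5). The part of these marker shifts in the changes of the phosphatases was not tested.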

How the data were processed

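RNA from LSK cells of 3 knockout and 3 control samples was hybridised to 1 Affymetrix array each, from 250 ng of total RNA, per the labels' protocols. The authors deposited log2 values per probe set, made with RMA per the submitters' processing notes. RMA gives all arrays nearly the same distribution of values, which hides any shift common to most genes. The log base was read from the range of the values (up to 11.5), and the software version, genome build and array batches were not given in the sources used here.

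Of 65956 probe sets, 30604 had 1 gene symbol in the platform annotation, 2146 had several and 33206 were not listed. Symbols were updated by Entrez ID through RefSeq (GRCm38.p6), where 22818 matched. The brightest probe set stood for a gene, and 11406 genes with a mean under 1.92, the median of all probe sets, were left out. The test was that of limma 3.58.1 (R 4.3.3; lmFit, eBayes, two-sided, Benjamini-Hochberg over 18736 genes), tested on simulated data. Deviations from the group means correlated at 0.219, 0.335 and 0.104 between samples of the same replicate number. Samples of differing number were not compared and no label gives a pairing, so these values do not establish one. Alternatives were fits with replicate number as a block, with no filter or a stricter one (1 log2 unit higher), other scalings and weights, and without each array.

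Genes named are the 9 phosphatases, the miR-21 locus, Dusp9, defining markers, the 3 nearest genes by correlation, and of each pathway list up to 4 genes by p with the largest and smallest change. Members and lists were chosen with earlier results of these data known. Promoters and the microRNA sequence are from RefSeq tables, which held promoters for 8 of the 9 genes.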

Additional observations from a re-analysis of the deposited data

How the results depend on the processing

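Across 15 alternatives, 6 of which leave out 1 array, the changes of the 9 phosphatases, their medians and the counts of calls gave 210 values. In all of them the changes kept their direction and side of the threshold. The counts stayed within 1.5 times, and the medians moved by less than the spread between arrays. The count of called phosphatases was 8 in each, with 7 lower and 1 higher. With an array left out the change of Dusp16 ran from -1.51 to -1.38, that of Dusp6 from -1.36 to -1.26 and that of Dusp7 from 0.24 to 0.34 (adjusted p 0.0140 to 0.0424), so that Dusp7 came nearest to the threshold. Calls over all genes ran from 4180 to 5156 with an array left out. In the fit with replicate block the number was 7183 of 18736, and no phosphatase changed its call (Dusp7 adjusted p = 0.00877, Dusp1 0.266), nor did the count of any list move by over 1.5 times. Of the genes named from lists, Ppm1b (-0.20, adjusted p = 0.0384) and Jund (0.17, adjusted p = 0.0387) passed only with the block or, for Ppm1b, also with the stricter filter and without knockout replicate 3, and Rps6ka3 passed only with array weights (0.16, adjusted p = 0.0452). Ptpmt1 missed the threshold with arrays centred on their medians (0.22) and Ssh3 with no filter, a second quantile normalization and all probe sets tested. The count of called dual-specificity phosphatases outside the 9, 5 as reported, was 3 with no filter and with all probe sets tested. Of the B cell markers, 2 were called as reported, 0 without knockout replicate 3 and 1 with all probe sets tested or without any 1 of knockout replicates 1 and 2 and control replicates 1 and 2, and of the T and NK cell markers 1 in place of 2 with the stricter filter. Among 1005 values of lists and named genes, 50 changed. These were calls that changed, counts that moved by over 1.5 times or medians that moved by more than the spread between arrays. Of the calls 0 were reversed, and the cause of the changes was not tested. With all probe sets tested, 46% of the called were higher, against 61.5% of the called genes. No filter or scaling can recover a shift common to all genes.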
